A study of Mus musculus with 8 samples.

Results

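Regulators of G-protein signalling, the RGS proteins, are a family of which 9 genes known from blood cells were looked up by name in the count table: Rgs1, Rgs2, Rgs3, Rgs10, Rgs12, Rgs14, Rgs16, Rgs18 and Rgs19. A row was found for 7 of the 9, out of 12823 rows, and all 7 were among the 12494 genes that passed the filter on low counts. Rgs1 and Rgs16 were not analysed here. The RNA came from GFP-positive mouse bone marrow cells transformed by MLL-AF9, a fusion gene that causes acute myeloid leukemia (AML), with the same number of cells extracted per sample. New AML (4 libraries) consists of newly generated MLL-AF9 cells collected from sublethally irradiated recipients of transduced bone marrow progenitors. Aggressive AML (4 libraries) consists of MLL-AF9 cells described as obtained from the same leukemia through 5 serial transplantations, which the study performed in non-irradiated C57BL/6 mice. Both groups carry the same fusion gene and reporter, and neither was given a drug. Irradiation of the host, passage and any batch that follows the group cannot be told apart, and no clone or pool is named for the samples.

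Receptors that couple to G proteins pass on signals from chemokines, lipids and nucleotides by loading the G alpha subunit with GTP, which frees it from the G beta and gamma subunits. An RGS protein binds the active G alpha subunit and speeds up the hydrolysis of GTP, so that signalling ends sooner. In white blood cells the family is known for limiting the response to chemokines and other attractants. The genes fall into subfamilies by sequence. Rgs2, Rgs3 and Rgs18 belong to the R4 subfamily, Rgs10, Rgs12 and Rgs14 to the R12 subfamily and Rgs19 to the RZ subfamily.

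Library totals ran from 7805544 to 9697777 counts, which makes a single count 0.103 to 0.130 CPM, the unit of counts scaled to a common library size. The myeloid genes Spi1, Itgam, Mpo, Elane and Ctsg and Hoxa9 and Meis1, which MLL fusions are known to drive, were among 13 identity genes. Of the 13 tested, 4 were called higher in aggressive AML (Elane, Ctsg, Kit and Meis1) and 4 lower (Spi1, Itgam, Csf1r and Csf3r). Ctsg, a granule protease, rose from 1407 ± 144 to 2004 ± 148 CPM (SD, n = 4). The 4 Y-linked genes Ddx3y, Eif2s3y, Kdm5d and Uty summed to 251 to 287 CPM in new AML and had 0 counts in each aggressive AML library. Whether both groups hold cells of the same origin was not tested, and this bears on every difference between the groups. Neutrophil markers summed to 328 to 495 CPM in new AML and 169 to 220.4 CPM in aggressive AML, with 8 of 11 called lower, and the part of this in the results on RGS genes was not tested.

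Of the 7 RGS genes tested, 4 fell in aggressive AML and 0 rose in the edgeR quasi-likelihood test with Benjamini-Hochberg adjustment over all tested genes and a threshold of 0.05. Over all tested genes 18.4% were called, 10.2% lower and 8.15% higher. The genes that fell were Rgs2, Rgs3, Rgs18 and Rgs10, and Rgs12, Rgs14 and Rgs19 were not called. At an unadjusted p under 0.05 there were 5 RGS genes, each lower, and the alternative tests called 0 RGS genes higher. No value of one group fell within the range of the other in 4 of the 7, against 21.8% of all tested genes. All 7 fold changes lay below 0 on the log2 scale, as did 49.9% of all, and their median was -0.71 where the median of all tested genes was 0.00. In bulk RNA, fewer cells of a type and less RNA per cell cannot be told apart.

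Rgs2 is a small protein of the R4 subfamily that acts mainly on the Gq class of G alpha subunits. It lies on chromosome 1 (143999338 to 144004161, minus strand, GRCm38). New AML libraries measured 91.2, 129, 152 and 126 CPM in replicates 1 to 4, and aggressive AML libraries 89.5, 66.6, 75.7 and 72.8 CPM. The groups did not overlap, but new AML replicate 1 lay just above aggressive AML replicate 1. Averages of 124 ± 24.9 and 76.1 ± 9.69 CPM (SD, n = 4) gave a log2 fold change of -0.71 (SE 0.13, edgeR adjusted p = 0.00167). On the linear scale aggressive AML held 0.612 times the new AML level, with a 95% interval of 0.504 to 0.743.

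Rgs18, best known from platelets and megakaryocytes, lies on the same chromosome (144752683 to 144775435, minus strand). New AML measured 33.2, 35.0, 30.0 and 44.0 CPM and aggressive AML 17.2, 23.8, 21.0 and 23.6 CPM. Every new AML library was above every aggressive AML library. The log2 fold change was -0.73 (SE 0.14, edgeR adjusted p = 0.00207), or 0.603 times the new AML level with an interval of 0.490 to 0.741. Of 9 megakaryocyte markers looked up, 3 had a row, and these summed to 48.5 to 75.6 CPM in new AML and 50.9 to 79.1 CPM in aggressive AML. The part of such cells in the level of Rgs18 was not tested. Of 3 megakaryocyte markers tested, 0 were called by edgeR and 2 had an unadjusted p under 0.05, 1 in each direction.

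Rgs3, which has long and short isoforms around the same RGS domain, was the least abundant of the 7 (chromosome 4, 62559847 to 62704001, plus strand). Its level was 7.90, 11.7, 9.15 and 7.80 CPM in new AML and 5.18, 4.36, 3.11 and 5.80 CPM in aggressive AML, from 70 to 98 counts and 24 to 51 counts per library. No aggressive AML library reached the lowest new AML library. The mean fell from 9.12 ± 1.79 to 4.61 ± 1.16 CPM (SD, n = 4), with a log2 fold change of -0.97 (SE 0.23, edgeR adjusted p = 0.00745). Counts of the isoforms were not separated here, and the span of the gene holds the antisense gene Gm11209, with which it shares no exon bases.

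Rgs10 is a small member of the R12 subfamily that acts on the Gi class and is abundant in myeloid cells and microglia. It lies on chromosome 7 (128373621 to 128418758, minus strand). New AML measured 30.6, 32.0, 23.8 and 29.8 CPM, and aggressive AML 13.5, 13.3, 21.0 and 12.3 CPM. Aggressive AML replicate 3 stood above the rest of its group but below every new AML library. The log2 fold change was -0.95 (SE 0.16, edgeR adjusted p = 0.000956), or 0.516 times the new AML level with an interval of 0.405 to 0.658. Without aggressive AML replicate 3 it was -1.15.

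**Figure D1:**
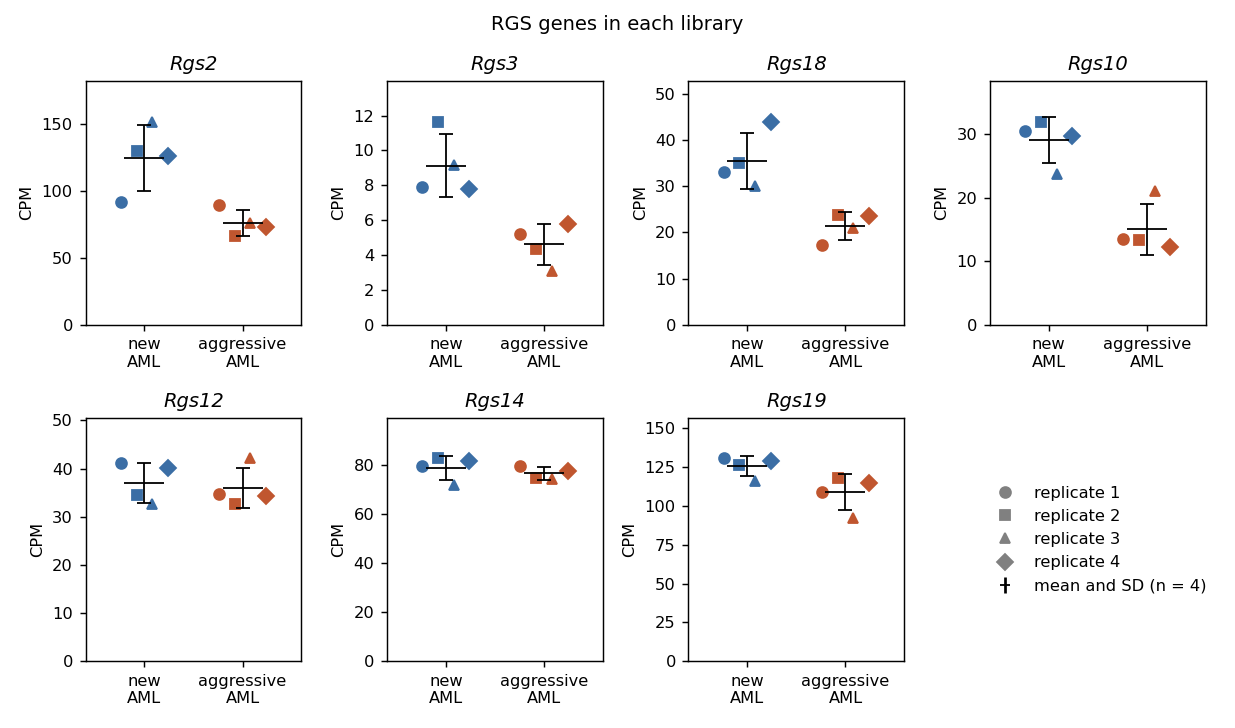
Level of each RGS gene in CPM (vertical axes from 0) in the 4 new AML libraries (blue) and the 4 aggressive AML libraries (orange), with the replicate number as the symbol and the mean and SD in black. Rgs2, Rgs3, Rgs18 and Rgs10 do not overlap between groups, while Rgs12, Rgs14 and Rgs19 do.

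The remaining members of the R12 subfamily are larger scaffold proteins, which carry Ras-binding and GoLoco regions beside the RGS domain. Rgs12 (chromosome 5, 34949445 to 35039644, plus strand) measured 41.2, 34.6, 32.6 and 40.0 CPM in new AML and 34.8, 32.6, 42.1 and 34.4 CPM in aggressive AML. The ranges lay over each other, and the log2 fold change was -0.05 with a 95% interval of -0.29 to 0.20 (edgeR adjusted p = 0.818). Reads of Rgs12 can be shared with the antisense gene Gm43791 over 467 exon bases, since the strand setting of the counting was not stated. Rgs14 (chromosome 13, 55369732 to 55384687, plus strand) measured 79.6, 82.9, 72.0 and 81.7 CPM against 79.9, 75.0, 74.4 and 77.6 CPM. It had the smallest spread between libraries of the 7 genes in aggressive AML, at a coefficient of variation of 3.28%. Its log2 fold change was -0.04 with an interval of -0.21 to 0.12 (edgeR adjusted p = 0.744).

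Rgs19, also called GAIP, belongs to the RZ subfamily and acts on the Gi class (chromosome 2, 181688419 to 181693977, minus strand). The values were 130.4, 126, 116 and 129 CPM in new AML and 109, 118, 92.1 and 115 CPM in aggressive AML. New AML replicate 3 lay below aggressive AML replicate 2, so that the groups overlapped. The log2 fold change was -0.21 (SE 0.09, unadjusted p = 0.0305, edgeR adjusted p = 0.110). Its interval of -0.39 to -0.02 holds no change as large as the estimates of Rgs2, Rgs3, Rgs18 and Rgs10.

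**Figure D2:**
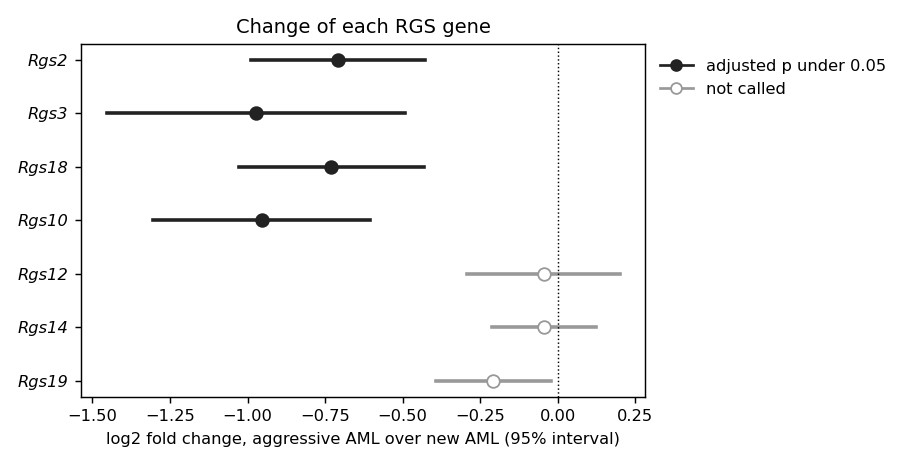
Log2 fold change of aggressive AML over new AML (horizontal axis) with its 95% interval for each RGS gene, from edgeR on 4 against 4 libraries. Filled symbols mark an adjusted p under 0.05. The 4 called genes lie between -0.97 and -0.71, and the 3 others between -0.21 and -0.04.

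To compare genes within a subfamily directly, the log2 ratio of their CPM was taken in each library for the 6 pairs of the R4 and R12 genes, a comparison chosen after the values had been seen. The ratio of Rgs10 to Rgs12 averaged -0.36 ± 0.16 over the new AML libraries and -1.29 ± 0.20 over the aggressive AML libraries (SD, n = 4), with separate ranges. For Rgs10 and Rgs14 it was -1.45 ± 0.11 against -2.39 ± 0.38, again with separate ranges. By exact permutation (two-sided) each gave p = 0.0286, which is as low as 70 choices can go, and 0.0857 after adjustment over the 6 pairs, so neither passed 0.05. Rgs12 and Rgs14 kept a ratio of -1.10 ± 0.13 and -1.10 ± 0.19 (exact permutation p = 1). Between the R4 genes the difference of the ratios was 0.31 for Rgs2 over Rgs3, 0.04 for Rgs2 over Rgs18 and -0.27 for Rgs3 over Rgs18, with exact permutation p of at least 0.229.

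Levels of different genes were compared as CPM per kilobase of exon, the union of all annotated exons. In new AML the order was Rgs19 (56.3 CPM per kilobase), Rgs2 (34.3), Rgs14 (18.7), Rgs18 (17.5), Rgs10 (17.0), Rgs12 (4.37) and Rgs3 (0.845). The ranges of the libraries overlapped between Rgs14 and Rgs18 and between Rgs18 and Rgs10, and not between the other neighbours in this order. The order of the means was the same in aggressive AML, at 48.7, 21.0, 18.1, 10.5, 8.78, 4.24 and 0.427 CPM per kilobase. There the ranges of Rgs2 and Rgs14 overlapped, as did those of Rgs18 and Rgs10. When the longest transcript was used as the length instead, Rgs14 (32.2) stood above Rgs2 (25.2) in aggressive AML and Rgs10 stood above Rgs18 in both groups. Summed over the 7 genes, the per-length level was 142 to 156 in new AML and 108 to 113 in aggressive AML. Of that sum Rgs19 held 37.8% ± 2.25 in new AML and 43.5% ± 3.74 in aggressive AML, Rgs14 12.5% ± 0.607 and 16.2% ± 0.379, and Rgs10 11.4% ± 1.32 and 7.90% ± 2.35 (SD, n = 4).

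**Figure D3:**
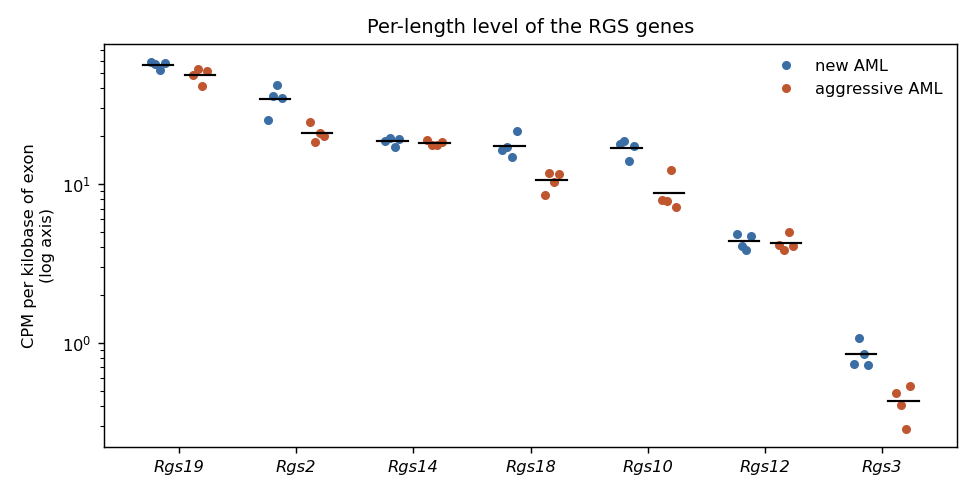
Level of each RGS gene per kilobase of exon (log axis) in new AML (blue) and aggressive AML (orange). Points are libraries, 4 per group, and lines are means. Levels span 56.3 for Rgs19 to 0.845 for Rgs3 in new AML.

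Start site sequences are shown for the called genes that RefSeq lists in its promoter windows (GRCm38.p6). The called gene Rgs18 had no window there. The table matched 6 of the 9 RGS names. Each line below gives the 250 bases before an annotated start, 5′ to 3′ on the strand of the gene, for Rgs2 (chr1:144004150-144004399), Rgs10 (chr7:128418173-128418422) and the upstream and downstream starts of Rgs3 (chr4:62559597-62559846 and chr4:62619422-62619671). Capitals mark matches on either strand to the cAMP response half-site TGACG, the CCAAT box CCAAT, the GC box GGGCGG, the TATA box TATAAA, the ETS core GGAAGT, or to the interferon-stimulated response element.
Rgs2: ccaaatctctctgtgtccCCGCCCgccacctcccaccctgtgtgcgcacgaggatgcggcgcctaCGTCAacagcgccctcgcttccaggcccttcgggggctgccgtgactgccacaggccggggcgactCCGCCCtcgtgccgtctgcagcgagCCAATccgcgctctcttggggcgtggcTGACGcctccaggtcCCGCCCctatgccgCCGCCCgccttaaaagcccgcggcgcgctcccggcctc
Rgs10: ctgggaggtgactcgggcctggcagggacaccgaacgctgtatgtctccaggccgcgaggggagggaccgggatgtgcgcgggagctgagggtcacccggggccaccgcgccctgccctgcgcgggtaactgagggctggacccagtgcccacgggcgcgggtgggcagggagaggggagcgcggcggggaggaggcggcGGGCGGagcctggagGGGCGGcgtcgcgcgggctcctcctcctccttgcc
Rgs3 upstream start: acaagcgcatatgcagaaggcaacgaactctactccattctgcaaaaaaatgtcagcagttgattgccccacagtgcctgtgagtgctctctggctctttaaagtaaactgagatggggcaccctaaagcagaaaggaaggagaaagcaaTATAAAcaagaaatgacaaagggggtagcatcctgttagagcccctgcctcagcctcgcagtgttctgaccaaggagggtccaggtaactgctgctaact
Rgs3 downstream start: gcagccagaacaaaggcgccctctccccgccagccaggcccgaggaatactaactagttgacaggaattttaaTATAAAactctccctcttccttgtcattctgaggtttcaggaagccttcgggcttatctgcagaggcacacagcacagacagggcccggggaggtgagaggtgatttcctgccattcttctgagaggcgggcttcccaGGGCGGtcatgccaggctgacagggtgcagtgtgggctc
The windows of Rgs2 and Rgs10 were rich in G and C, at 72.4% and 76.4% with 30 and 27 CG dinucleotides, while those of Rgs3 had 48.4% and 56.8% with 3 and 7. The medians over all 32851 windows were 52.4% and 6. In Rgs2 there were 2 matches to the cAMP response half-site, which 17.8% of all windows hold at least once, 1 CCAAT box (33.8% of windows) and 4 GC boxes (32.7%). Rgs10 had 2 GC boxes. Each Rgs3 window had 1 match to TATAAA (12.4%), at base -100 from the upstream start and base -177 from the downstream start. The downstream Rgs3 window also had 1 GC box. Whether these matches act at the starts was not tested. The ETS core (19.7% of windows) and the interferon-stimulated response element (2.98%) had 0 matches in these windows. No motif was common to all of them. Windows of Rgs12 and Rgs19, which were not called, also had GC boxes and high G and C contents, so these were not particular to the called genes. Neither gene had a CCAAT or TATA box match. The ETS core matched in each Rgs19 window and in 1 Rgs12 window, and the cAMP response half-site in the same Rgs12 window. Whether any motif goes with the call was not tested. G and C made up 68.4% and 55.6% of the Rgs12 windows, with 3 and 1 GC boxes. For Rgs19 they made up 64.8%, 74.8% and 54.4%, with 1, 2 and 0 GC boxes.

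Rgs2 and Rgs18 are the ends of a cluster of 5 RGS genes on chromosome 1, with 748.5 kb between them. The tested genes within 1 Mb of this cluster were Rgs2 and Rgs18 themselves and Cdc73, Glrx2, Trove2 and Uchl5, which lie together on the Rgs2 side, 191.9 kb from Rgs2 at the nearest. Of these 6 genes, Rgs2 and Rgs18 were the called ones. Uchl5, a proteasome-associated deubiquitinase, measured 93.2 ± 11.7 and 96.7 ± 4.20 CPM (log2 fold change 0.05, interval -0.14 to 0.25). Cdc73, a subunit of the PAF1 transcription complex, measured 56.8 ± 1.53 and 61.2 ± 5.03 CPM (0.11, interval -0.08 to 0.29). The log2 fold change was -0.20 for Glrx2, a glutaredoxin, and 0.08 for Trove2, which encodes the Ro60 autoantigen, though the latter lay below 0 with limma-voom weights and without aggressive AML replicate 4. Around the position of Rgs16, further along the chromosome, Dhx9, Glul, Lamc1 and Npl were not called. The 95% intervals of their log2 fold changes were -0.05 to 0.33, -0.12 to 0.48, -1.48 to 0.37 and -0.99 to 0.26. Leaving out 1 library moved the value of Dhx9 from 0.14 to as low as 0.044 and that of Glul from 0.18 to as low as 0.037, both without aggressive AML replicate 3, and that of Lamc1 from -0.56 to between -0.85 (without new AML replicate 4) and -0.24 (without new AML replicate 3).

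One further gene of the RGS family could be tested. Rgs11, an R7 subfamily gene that pairs with Gnb5, was near the detection limit at 1.15 ± 0.527 CPM in new AML and 1.85 ± 0.531 CPM in aggressive AML, a log2 fold change of 0.68 with an interval of -0.14 to 1.51 (edgeR adjusted p = 0.241). It shares 138 exon bases with Arhgdig on the opposite strand, so that its reads are uncertain. Its partner Gnb5, the atypical G beta subunit, rose from 1.90 ± 0.414 to 4.32 ± 0.465 CPM (log2 fold change 1.18, edgeR adjusted p = 0.00654). Among 8 tested proteins with RGS-like domains outside the RGS genes, such as axins and sorting nexins, 0 were called in either direction by edgeR, 0 had an unadjusted p under 0.05, and 0 were called by DESeq2 or limma. The most abundant per length was Arhgef1, a guanine nucleotide exchange factor that acts downstream of G12 and G13, at 367 ± 22.7 and 344 ± 25.9 CPM (log2 fold change -0.09, interval -0.26 to 0.07).

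The G alpha subunits are the direct targets of RGS proteins. Of 11 tested, 1 was called higher and 3 lower, against 8.15% and 10.2% of all tested genes. Their median log2 fold change was -0.03. Gna15, the Gq class subunit typical of blood cells, fell from 61.0 ± 6.88 to 35.7 ± 6.86 CPM (SD, n = 4; log2 fold change -0.77, SE 0.13). Gna14 of the same class fell from 3.67 ± 1.02 to 1.21 ± 0.421 CPM. Within the Gi class, Gnai3 rose from 274 ± 14.5 to 349 ± 32.2 CPM (log2 fold change 0.35, edgeR adjusted p = 0.00569), whereas Gnai2, the most abundant G alpha gene per length at 220.1 and 187 CPM per kilobase, had a log2 fold change of -0.23 (adjusted p = 0.0333). The call of Gnai2 was lost with upper-quartile factors (adjusted p = 0.0516) and without new AML replicate 1 or 2 or aggressive AML replicate 1, 2 or 4 (0.0743 to 0.0987).

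Of 12 tested G beta and gamma genes, 3 were called higher and 3 lower, where 8.15% and 10.2% of all tested genes were. Their median log2 fold change was 0.08. Gng2, a widely used gamma subunit, fell from 92.0 ± 13.3 to 44.9 ± 6.22 CPM (log2 fold change -1.04, SE 0.12), and Gngt2, a gamma subunit at low level, fell from 3.36 ± 0.574 to 0.674 ± 0.417 CPM. The rising genes with the largest fold changes were Gng3, at 0.881 ± 0.605 and 2.34 ± 1.10 CPM, and Gnb5. Gng3 overlapped between groups, and its adjusted p of 0.0467 became 0.0514 to 0.128 without new AML replicate 1, 3 or 4 or aggressive AML replicate 1, 3 or 4, 0.0668 with the replicate block and 0.143 with limma-voom weights. The most abundant gene per length was Gnb2, at 427 ± 16.0 and 370.0 ± 17.2 CPM. Its log2 fold change of -0.21 passed with an adjusted p of 0.0435, but leaving out any single library other than aggressive AML replicate 3 gave 0.0508 to 0.114, RLE factors 0.0520 and upper-quartile factors 0.0641.

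The receptors are the entry point of the pathway. Of 27 leukocyte receptors tested, edgeR called 13 lower and 0 higher, against 10.2% and 8.15% of all tested genes. At an unadjusted p under 0.05, 16 were lower and 0 higher, and 0 were called higher under any alternative. The median log2 fold change was -0.61. Cysltr1, a receptor for cysteinyl leukotrienes, had a log2 fold change of -3.68, and S1pr3, a receptor for sphingosine 1-phosphate, fell from 29.4 ± 5.13 to 7.74 ± 1.46 CPM (-1.92). Cxcr4, the receptor that holds blood progenitors in the marrow and the most abundant of the list per length, measured 355, 312, 295 and 348 CPM in new AML and 185, 233, 403 and 304 CPM in aggressive AML. It was not called (log2 fold change -0.22, edgeR adjusted p = 0.393), but 2 of 17 alternatives called it lower. Without aggressive AML replicate 3 the value was -0.44 and the edgeR adjusted p 0.0271. With limma-voom weights it was -0.39, with a limma-voom adjusted p of 0.0379. The neutrophil markers, of which Cxcr2 is also in the receptor list, moved in the same direction, and their part in the receptor counts was not tested.

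Among the effectors of G proteins, 3 of 20 were called higher and 7 lower, against 8.15% and 10.2% of all tested genes. Their median log2 fold change was -0.10. The number of effectors called higher was 1 without new AML replicate 2 or 4 or aggressive AML replicate 2 or 4. Pik3r5 and Pik3r6 encode the regulatory subunits through which G beta and gamma act on the PI3-kinase gamma. Pik3r5 fell from 26.4 ± 1.66 to 9.30 ± 2.23 CPM (log2 fold change -1.50, SE 0.16), and Pik3r6 from 48.2 ± 7.35 to 28.0 ± 4.84 CPM (-0.78, SE 0.14). Adcy6, an adenylate cyclase that Gi inhibits, rose from 6.11 ± 2.22 to 16.6 ± 5.29 CPM (log2 fold change 1.43, SE 0.26). Prkar2a, a regulatory subunit of protein kinase A, was called at a log2 fold change of 0.52 (adjusted p = 0.0392) and lost the call without any single library other than new AML replicate 3 (0.0506 to 0.119). Prkar1a, the most abundant of the list per length, had a log2 fold change of 0.04. Among 10 other modulators, Rap1gap, a GTPase activator for Rap1, was called higher (4.27 ± 0.715 to 7.61 ± 0.863 CPM), 0 were called lower by edgeR, limma or DESeq2 and 1 was lower at an unadjusted p under 0.05. Gpsm3, a small GoLoco protein and the most abundant of that list per length, had a log2 fold change of -0.18 with an interval of -0.39 to 0.02.

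**Figure D4:**
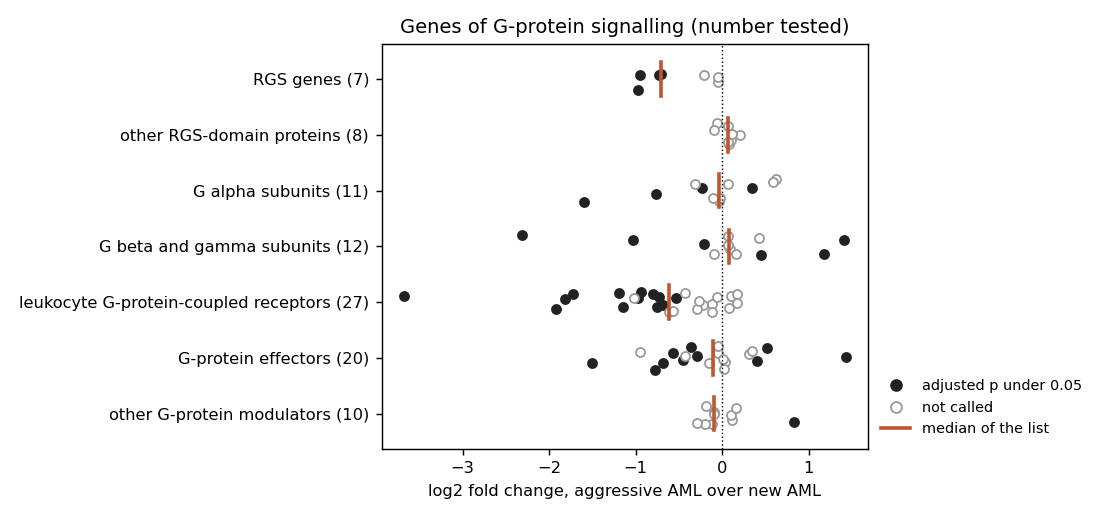
Log2 fold change of aggressive AML over new AML (horizontal axis) for each tested gene of 7 lists of G-protein signalling, with the number tested in brackets. Filled symbols mark an adjusted p under 0.05 and orange lines the median of a list, which is -0.71 for the RGS genes and -0.61 for the receptors. Vertical scatter within a list has no meaning.

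Genes whose profile over the 8 libraries was most like that of a called RGS gene were found by the root mean square difference of log2(CPM + 1), centred on the mean of each gene, as a description of these libraries alone. Nearest to Rgs2 were Fam189b, Gpr107 and Btg2, at differences of 0.14, 0.15 and 0.15. For Rgs3 they were C1galt1c1, Senp8 and Fam105a (0.12, 0.13 and 0.14), and for Rgs10 they were Map3k6, Capn5 and Hlx (0.11, 0.14 and 0.15). Nearest to Rgs18 were Dock4, Wdfy3 and Gm14548 (0.08, 0.09 and 0.11). Dock4 was low, at 1.83 ± 0.417 and 0.809 ± 0.189 CPM, where the added 1 CPM shrinks differences. Its edgeR log2 fold change was -1.16, against -0.73 for Rgs18. The RGS genes were not among each other's nearest genes. The closest in rank was Rgs18 for Rgs10, which stood at place 209 with a difference of 0.30. The smallest difference was 0.29, between Rgs2 and Rgs3, where Rgs3 was at place 511 for Rgs2 and Rgs2 at place 353 for Rgs3. Rgs2 and Rgs18 of the same cluster differed by 0.34.

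Markers of other cells that a sort can hold were examined beside these results. Macrophage markers summed to 226 to 280.2 CPM in new AML and 174 to 241 CPM in aggressive AML, with 1 of 4 tested called lower, Adgre1 (83.1 ± 20.9 to 46.9 ± 7.93 CPM). Erythroid markers summed to 26.7 to 96.0 CPM and 10.5 to 51.9 CPM, with 1 of 6 called lower, Hba-a1, which kept its call in 6 of 17 alternatives. B cell markers summed to 40.2 to 45.4 and 30.6 to 34.0 CPM with Cd22 called lower, and T cell markers to 5.35 to 6.77 and 7.77 to 10.2 CPM with Cd5 called higher, each with 2 genes tested. Cd5 kept its call in 11 of 16 alternatives and lost it with the replicate block (edgeR adjusted p = 0.0524) and without new AML replicate 2 or 4 or aggressive AML replicate 3 or 4 (0.0700 to 0.101). Natural killer cell markers were not analysed here. S100a8, the called neutrophil marker with the highest mean CPM, went down from 117 ± 21.0 to 64.7 ± 14.9 CPM. The part of these cells in the levels of RGS genes was not tested.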

How the data were processed

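RNA of 8 samples was sequenced. The authors purified polyadenylated RNA, aligned paired reads to mm10 with HISAT2, obtained gene counts with Rsubread and removed genes below 1 CPM. The gene annotation and strand setting are not given in the sources used here. Although its name says CPM, the deposited file holds whole-number counts whose totals differ between libraries, and these were used as raw counts. It has 12823 rows, 0 without a name.

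Groups and replicate numbers came from the sample titles, which call the samples biological replicates. Genes reaching 1 CPM in 4 or more libraries (12494, with 329 left out) were tested with the edgeR quasi-likelihood test (version 4.0.16, R 4.3.3) with TMM factors, which are also applied in all CPM values, and the group alone in the model. Tests were two-sided, p-values were adjusted by Benjamini-Hochberg over all tested genes, and 0.05 was the threshold. The F statistic and the fold change together gave the standard error. DESeq2 (1.42.0), limma (3.58.1, the tool of the study) on log2(CPM + 1), limma-voom with sample weights, other scaling factors and filters, a replicate block and leaving out each library were alternatives. Replicates of each pair differed beyond sampling noise (chi-square of 4.06 to 11.0 per degree of freedom). In aggressive AML the pairs with replicate 3 gave 10.5 to 11.0 and the other pairs 4.58 to 6.98. Pairs of new AML gave 4.06 to 10.4.

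Named are all RGS genes, the most abundant called marker of each marker list by mean CPM, and the called identity genes. In each G-protein list the 2 called genes per direction with the largest fold change and the most abundant gene per length are named. So is every tested gene of the remaining RGS genes and chromosome 1 neighbours. A neighbour on chromosome 1 that this rule names is not reported here. Members and lists were chosen with earlier results of these data known. Coordinates and lengths are from GENCODE M21 (GRCm38, the build of mm10).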

Additional observations from a re-analysis of the deposited data

Results flagged for a closer look

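In 5 of 88 sets of 4 libraries (the named genes in each group), 1 library stood far from the other 3 by Dixon's criterion. By chance the criterion marks a single set about 1 time in 20, and the sets share libraries. Among the RGS genes this was Rgs10 in aggressive AML replicate 3, at 21.0 CPM where the others were 12.3 to 13.5 CPM. Gnai2 in the same library was 749 CPM, against 693 to 695 CPM. In new AML, replicate 1 held 451 CPM of Gnb2 (others 418 to 419.6 CPM), replicate 2 held 1.78 CPM of Gng3 (0.513 to 0.669 CPM), and replicate 4 held 609.9 CPM of Dhx9 (568 to 574 CPM).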

How the results depend on the processing

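The calls of Rgs2, Rgs3, Rgs10 and Rgs18 held in every alternative in which the gene was tested, 17 for Rgs2, Rgs10 and Rgs18 and 16 for Rgs3, which did not pass the filter of 10 CPM. Their highest adjusted p over these alternatives were 0.00767, 0.0356, 0.00494 and 0.00869. The number of RGS genes called was 4 in each alternative but that filter, where it was 3. Rgs12, Rgs14 and Rgs19 were called in none of their 17, but Rgs12 turned to 0.0089 without new AML replicate 1 (-0.13 to 0.0089 with 1 library left out). Among the other genes, Trove2 turned to -0.020 with limma-voom weights and -0.011 without aggressive AML replicate 4 (up to 0.21 with 1 library left out), and Uchl5 to -0.0038 without new AML replicate 4 (up to 0.13).

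Over all genes the calls were 2296, and 1534 to 2381 when 1 library was left out. Genes called higher (1018) ranged from 650 to 1077 in those fits, lowest without new AML replicate 2. In the G-protein lists 8 genes were called higher and 26 lower. The 8 became 5 with the filter of 10 CPM and 5 to 6 with 1 library left out. With the replicate number as a block, 4 RGS genes and 2367 genes in all were called. Same-numbered samples correlated at -0.07 to 0.20 in their deviations from the group means, and 2 of 4 correlated best with their own number, so the number was not taken as a pairing. Levels of Rgs3 and Rgs11 rest on few counts, which limits their precision.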
